A study of Mus musculus with 24 samples.

Results

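The mandible of mouse embryos in which Alk5 was deleted in the neural crest was compared with the mandible of control littermates, using the 12 arrays of the series' 24 whose titles name the mandible. Of these, 8 came from knockout and 4 from control embryos. Alk5 is the TGF-beta type I receptor encoded by Tgfbr1. The cross was Alk5fl/fl by Wnt1cre;Alk5fl/+, per the series notes, and embryos were taken at embryonic day 12.5 (strain label C57B6), so every control carries at least 1 floxed allele. Wnt1cre drives recombination in the neural crest lineage, so the epithelium, blood vessels, blood and muscle precursors of the jaw are not its targets. Knockout embryos were picked by their cleft palate and skull defect and the controls are littermates. Which of the other genotypes of this cross the controls carry, and whether an embryo or a pool stands behind a replicate number, is not given in the sources used here, so p-values below measure only how far these samples scatter. Each mandible was divided into a proximal and a distal end. Total RNA of each end went on its own array, with replicate numbers 1 and 2 for control and 1 to 4 for knockout. The 2 arrays of a replicate were averaged, which gives 2 control and 4 knockout means, and unless stated otherwise a level below is such a mean in log2 RMA units.

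TGF-beta ligands are released from latent complexes in the matrix, bind the type II receptor and bring ALK5 into the complex, and ALK5 then phosphorylates Smad2 and Smad3, which enter the nucleus with Smad4 to act on target genes. In the first pharyngeal arch, cranial neural crest cells form nearly all of the mesenchyme that becomes Meckel's cartilage, the dentary bone, tendons and the tooth papilla. Cartilage cells are directed by Sox9 and its partners Sox5 and Sox6, and lay down a matrix of type II, IX and XI collagens with aggrecan. BMP, FGF, WNT and Hedgehog signals pattern the same tissue.

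The deposited values carry features of the arrays that follow genotype and replicate number. The hybridisation controls, RNAs spiked in after extraction, lay at 10.55 to 11.04 on the control arrays, at 11.57 to 12.10 on the arrays of knockouts 1 and 2 and at 9.03 to 9.35 on those of knockouts 3 and 4 (mean log2 value, 4 arrays in each set). The 3′ minus 5′ difference of the control probe sets for Gapdh and beta-actin, a gauge of RNA decay called the 3′ excess here, was 0.18 to 0.22, 1.08 to 1.35 and 0.07 to 0.16 (log2 difference). Neither measure overlapped between the sets, so genotype cannot be told apart from the set an array belongs to, and each knockout pair is given beside the other throughout. Both pairs share the same 2 controls. Both controls and knockouts 1 and 3 were male by Xist and the Y-linked Kdm5d, and knockouts 2 and 4 were female.

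The tissue matched its label: Hand2, a transcription factor of the mandibular arch, spanned 10.80 to 13.05 on the 4 control mandible arrays and 10.46 to 13.11 on the 8 knockout mandible arrays, against 6.65 to 8.71 on the 4 control and 5.77 to 8.86 on the 8 knockout maxilla arrays. The ends of control 2 went against their labels. Hand2, which is higher distally, was 10.80 proximal and 12.72 distal in control 1 but 13.05 proximal and 11.49 distal in control 2, and Barx1, a proximal homeobox gene, was turned too. Across all genes tested, the distal minus proximal differences of the 2 controls correlated at -0.779, which describes these arrays only. The mean of both ends is the same whichever array is which, so no comparison of means below depends on it. Tgfbr1 itself is measured by 3 probe sets. The brightest lay at 12.24 to 12.47 on control arrays, 12.07 to 12.41 in knockouts 1 and 2 and 12.32 to 12.52 in knockouts 3 and 4. A dimmer probe set lay at 7.02 to 7.75, 5.42 to 6.18 and 6.28 to 6.81, below every control array on all 8 knockout arrays. The last lay at 6.64 to 7.14, 4.33 to 5.65 and 7.24 to 7.84. Whether any of these probes lies in the floxed exon is not given, so they check no label.

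**Figure D1:**
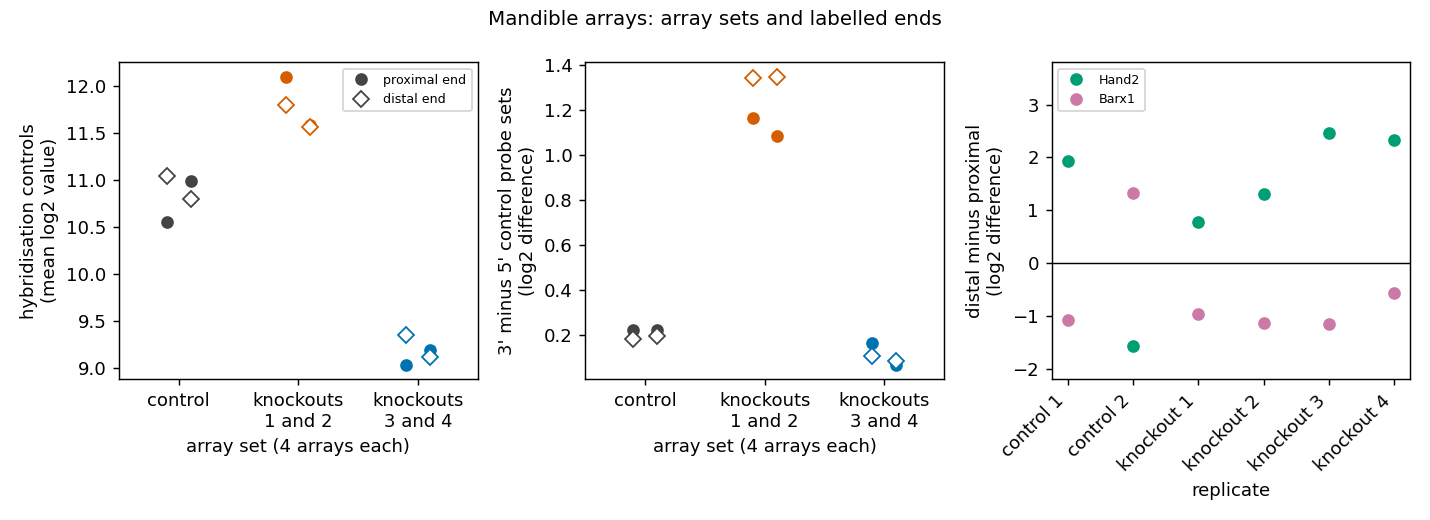
The first panel plots the mean log2 value of the hybridisation controls and the second the log2 excess of 3′ over 5′ control probe sets, by array set, with 1 point per mandible array (filled proximal, open distal); the 3 sets of 4 arrays do not overlap in either. The third panel plots the distal minus proximal log2 difference of Hand2 and Barx1 in each replicate, where control 2 has the opposite sign to the other 5 replicates for both genes.

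Which genes the loss of Alk5 changes in the mandible was asked first over all 6 means. At the threshold used, a Benjamini-Hochberg adjusted p under 0.05, limma called 0 of 13837 genes (0.0%), and the smallest adjusted p was 0.147. The unadjusted p was under 0.05 at 1263 genes (9.13%). The count of 0 was 2052 with the 3′ excess of the arrays as a covariate and 4975 when each pair was fitted as a group of its own, with the spread shared with the maxilla. The knockout pairs lay apart from each other at 9577 genes (69.2%), and that spread counts as replicate error in the comparison over all 4 knockouts. Taken alone, knockouts 1 and 2 differed from control at 9179 genes (66.3%), of which 3752 (27.1%) rose and 5427 (39.2%) fell. Knockouts 3 and 4, whose 3′ excess was below that of the controls, differed at 2153 genes (15.6%), with 708 (5.12%) higher and 1445 (10.4%) lower. With each array centred on its median the latter became 487 higher and 2050 lower, and the median difference over all genes moved from -0.03 to -0.08 in knockouts 3 and 4 and from -0.06 to -0.15 in knockouts 1 and 2. Values under 6.07, the level that a gene had to pass on at least 2 arrays to be tested, are called under the filter level below, and a difference that starts or ends there gives a direction but no well measured size. With the 3′ excess as a covariate limma called 0 genes in knockouts 1 and 2 (737 at an unadjusted p under 0.05) and 1 in knockouts 3 and 4. In that fit the sign of Mid1, Fam107a, Col2a1, Matn1, Col9a2, Ltbp4 and Slc4a1 turned in knockouts 1 and 2, and that of Aspn, Ogn and Tyms in knockouts 3 and 4. None of these turned differences passed (limma adjusted p from 0.814 to 0.988). The 3′ excess does not overlap between the sets, so this fit cannot separate it from the set. The count of 2153 was 532 without control 1, 819 without control 2, 456 without knockout 3, 223 without knockout 4 and 809 with a sex covariate.

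Genes whose 8 knockout arrays all lay on one side of the 4 control arrays were then taken, since they are apart in both pairs whatever the pairs' own difference. There were 401 such genes above control (2.90% of those tested) and 734 below (5.30%). In the 12 that stood furthest above control, ranked by the smaller of the differences of the pairs, Mid1 came first and Arg1 followed. Among the 12 furthest below, 7 were cartilage genes (Matn1, Acan, Hapln1, Cnmd, Col9a2, Col9a3 and Matn4), beside Papss2, which makes the sulphate donor for proteoglycans, and Scx, the transcription factor of tendon progenitors. None of these 24 passed the test over all 4 knockouts.

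Mid1, an X-linked ubiquitin ligase gene, stood at 6.93 and 7.17 in controls 1 and 2, 9.996 and 8.90 in knockouts 1 and 2 and 9.30 and 9.50 in knockouts 3 and 4. Every knockout lay above both controls, the male knockouts 1 and 3 as well as the females 2 and 4. The difference was 2.40 ± 0.33 (log2, SE, n = 2 against 2; limma adjusted p = 0.0011) in knockouts 1 and 2 and 2.35 ± 0.33 (adjusted p = 0.0123) in knockouts 3 and 4, or about 5.1-fold in the latter. Arg1, the enzyme that turns arginine into ornithine and urea, stood at 5.51 and 5.67 in the controls, under the filter level of 6.07, and at 8.12 and 7.88 and 7.002 and 7.98 in the pairs. All 4 knockouts were above the filter level and both controls under it, so Arg1 was tested only through the knockouts and no size is given. The pairs did not differ detectably from each other at Arg1 (0.51 ± 0.30, limma adjusted p = 0.177).

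Igdcc3, an immunoglobulin superfamily gene active early in development, stood at 8.02 and 8.02 in the controls, 12.08 and 12.19 in knockouts 1 and 2 and 9.25 and 9.40 in knockouts 3 and 4, and rose in both pairs (4.12 ± 0.07 and 1.30 ± 0.07, limma adjusted p = 1.58e-05 and 0.0014). Sned1, a matrix protein gene, rose by 2.61 ± 0.14 and 1.19 ± 0.14, and the imprinted Magel2 by 2.20 ± 0.10 and 0.82 ± 0.10. The transporter genes Slc15a2, for short peptides, and Slc16a4, of the monocarboxylate family, differed by 2.83 ± 0.38 and 1.32 ± 0.38, and by 1.39 ± 0.14 and 0.90 ± 0.14. The controls of Slc15a2 were themselves apart, at 6.98 and 8.21, and it did not pass in knockouts 3 and 4 (limma adjusted p = 0.0681). Adamts19, a secreted metalloprotease gene, stood at 5.08 and 5.19 in the controls, under the filter level, 6.93 and 7.12 in knockouts 1 and 2 and 6.17 and 6.16 in knockouts 3 and 4, just above that level. The remaining 4 of the 12 were Gdap10, Taf15, Ankrd52 and Greb1, with differences from 0.78 to 1.03 in knockouts 3 and 4 and from 1.47 to 2.10 in knockouts 1 and 2. Taf15 did not pass in knockouts 3 and 4 (adjusted p = 0.0975).

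Fam107a, an actin-associated gene induced by stress hormones, shared the smallest adjusted p over all 4 knockouts with other genes, Sox9 among them, without passing (-1.94 ± 0.15, limma adjusted p = 0.147). It stood at 7.87 and 7.51 in the controls and at 5.57 and 5.71 and 5.82 and 5.88 in the knockouts, which are below the filter level, so its fall is not well measured in size. Pcp4, a calmodulin-binding protein gene, fell by 2.13 and 1.58, and Scin, which severs actin filaments, by 2.77 and 1.36. The pairs stood side by side at Fam107a and apart at Scin, where knockouts 3 and 4 lay between the controls (8.06 and 7.81) and knockouts 1 and 2 (5.50 and 4.83, under the filter level).

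**Figure D2:**
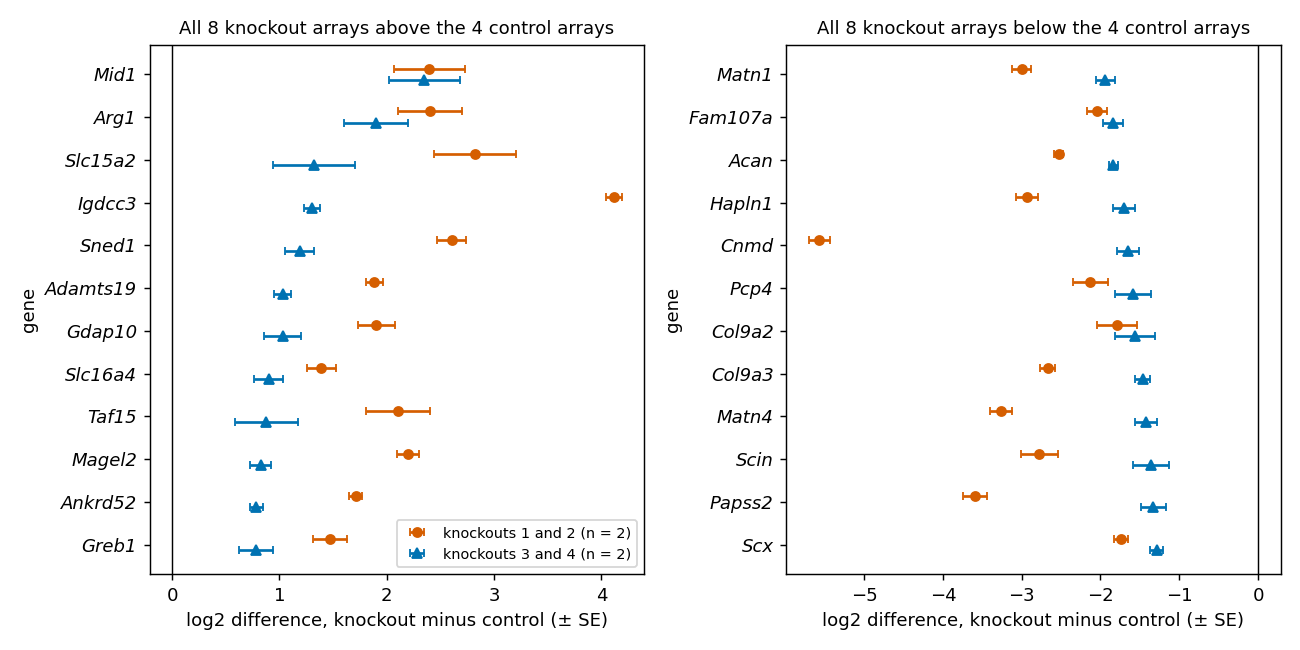
Points give the log2 difference from the 2 controls with its limma standard error for knockouts 1 and 2 and for knockouts 3 and 4, for the 12 genes furthest above (left) and furthest below control (right) among those whose arrays do not overlap. Mid1, Fam107a and Col9a2 have nearly the same value in both pairs, whereas Igdcc3, Cnmd and Papss2 differ more in knockouts 1 and 2. The choice of genes fixes the side of 0. Arg1, Adamts19, Matn1 and Fam107a rest on levels under the filter level on one side. So do Cnmd, Papss2 and Scin in knockouts 1 and 2, and Pcp4 in knockout 2.

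The gene lists were chosen with earlier results of these data known, so their counts describe the lists and are no independent support. Among them, cartilage genes were the most uniform group. Of the 19 listed, 16 passed the filter on low values; Comp and Ucma lay below it on all 12 mandible arrays and Snorc was not tested either. All 16 fell in knockouts 1 and 2, against 39.2% of all genes tested, and 14 fell in knockouts 3 and 4 against 10.4% of all genes tested. The median difference of the list was -1.48 and -1.22 in the pairs, beside -0.06 and -0.03 over all genes. Their 11 members with all knockout arrays below all control arrays compare with 5.30% of all genes. The members not called in knockouts 3 and 4, named here after their values were seen, were Sox5 and Matn3. In these bulk samples fewer cartilage cells and less RNA per cell cannot be told apart.

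The regulator Sox9 stood at 10.44 and 10.55 in the controls, 9.33 and 9.23 in knockouts 1 and 2 and 9.41 and 9.25 in knockouts 3 and 4. All 4 knockout means were more than 1 log2 unit below both controls, and the pairs gave the same size: -1.22 ± 0.08 (log2, SE, limma adjusted p = 7.06e-05) and -1.17 ± 0.08 (adjusted p = 0.0028), or 2.24-fold in the latter. Among the fibrillar collagens of cartilage, Col2a1 stood at 12.28 and 12.20, 11.26 and 11.48 and 11.13 and 11.22, and Col11a2 at 8.26 and 7.78, 6.58 and 6.63 and 6.80 and 6.70. Col2a1 thus fell by 0.87 and 1.06 and Col11a2 by 1.41 and 1.27, again about alike in both pairs. The type IX collagen chains, which sit on the surface of these fibrils, fell further. Col9a2 fell by 1.80 and 1.57 and Col9a3 by 2.67 and 1.47.

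Acan, which encodes aggrecan, the large proteoglycan that holds water in cartilage, stood at 8.73 and 8.77 in the controls, 6.19 and 6.24 in knockouts 1 and 2 and 6.95 and 6.88 in knockouts 3 and 4. The replicates of each set nearly coincided and the 3 sets were well apart. It fell by 2.53 (adjusted p = 1.58e-05) and 1.84 (adjusted p = 4.66e-04), or 5.79-fold and 3.57-fold. Hapln1, the link protein that ties aggrecan to hyaluronan, stood at 9.93 and 9.51, 6.71 and 6.85 and 8.03 and 7.999, falling by 2.94 and 1.70 (adjusted p = 2.75e-05 and 0.0044). Matn1, a matrilin that joins collagen fibrils and aggrecan, stood at 7.72 and 7.49, 4.51 and 4.71 and 5.56 and 5.78, so that all knockouts were under the filter level. Its differences were -2.998 ± 0.12 and -1.94 ± 0.12 (adjusted p = 2.08e-05 and 0.0020). Matn4 fell by 3.26 and 1.43. Cnmd, chondromodulin, which keeps vessels out of cartilage, stood at 10.75 and 10.36 in the controls, 5.07 and 4.90 in knockouts 1 and 2, under the filter level, and 8.95 and 8.86 in knockouts 3 and 4, where it fell by 1.65. Papss2, outside the list, stood at 9.37 and 8.98, 5.61 and 5.56 and 8.01 and 7.68, with knockouts 1 and 2 under the filter level too.

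The count of 14 cartilage genes in knockouts 3 and 4 was 10 to 14 when any single replicate was left out, 12 with a sex covariate and 15 after median-centring. It was 2 when the spread was shared with the maxilla and 0 with the 3′ excess as a covariate. The 3′ excess was lower in knockouts 3 and 4 than in the controls and higher in knockouts 1 and 2, and its part in these counts was not tested beyond that covariate.

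**Figure D3:**
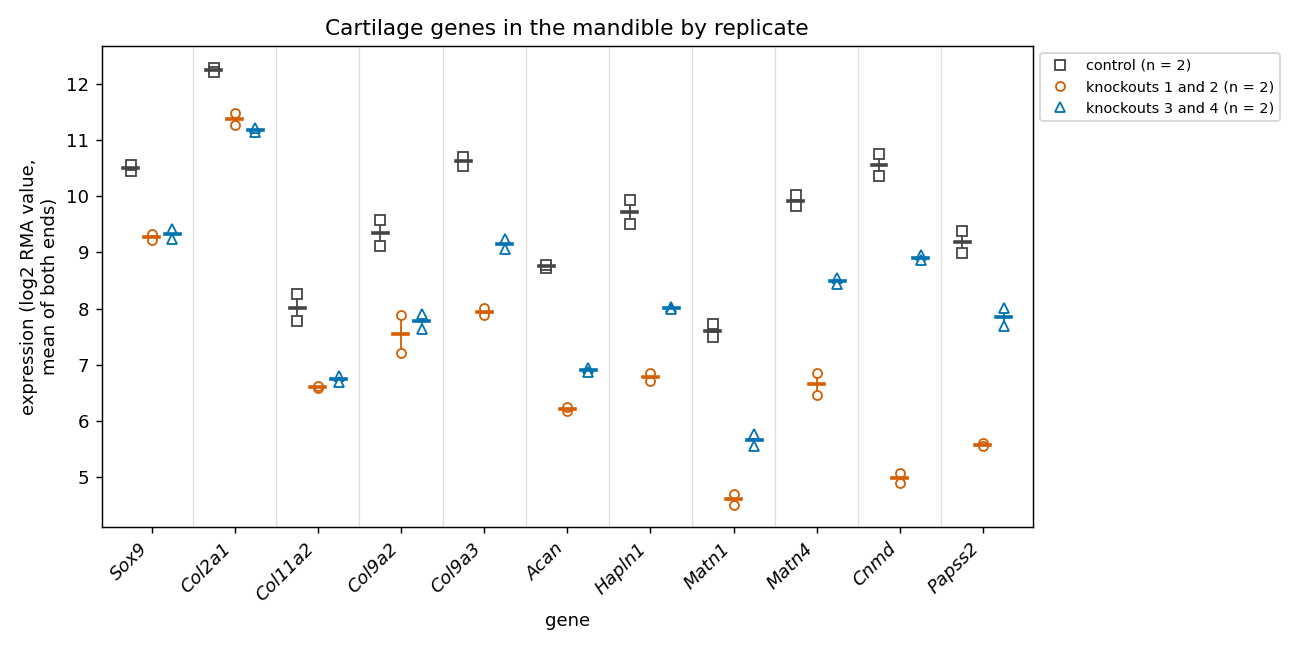
Log2 RMA levels of 11 cartilage and proteoglycan genes are plotted, 1 open point per replicate (mean of both ends) with a bar at the mean of each set of 2. Every knockout point lies below both control points of its gene; Sox9 and Col2a1 show the pairs at the same level, and Cnmd and Papss2 show knockouts 1 and 2 far below knockouts 3 and 4.

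The promoters of 3 of the genes that stood furthest below control, Matn1, Acan and Hapln1, are shown because these genes lay lower together. Each sequence is the 250 bases before the RefSeq start (GRCm38.p6, plus strand, chr4:130944135-130944384 for Matn1, chr7:79052976-79053225 for Acan and chr13:89540386-89540635 for Hapln1). Capitals mark CAGAC, the short Smad-binding core, on either strand.
Matn1: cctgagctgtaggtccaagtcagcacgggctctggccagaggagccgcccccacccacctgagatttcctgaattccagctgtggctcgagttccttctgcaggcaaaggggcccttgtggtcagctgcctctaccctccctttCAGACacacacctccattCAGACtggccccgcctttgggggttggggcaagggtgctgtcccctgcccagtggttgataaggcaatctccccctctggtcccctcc
Acan: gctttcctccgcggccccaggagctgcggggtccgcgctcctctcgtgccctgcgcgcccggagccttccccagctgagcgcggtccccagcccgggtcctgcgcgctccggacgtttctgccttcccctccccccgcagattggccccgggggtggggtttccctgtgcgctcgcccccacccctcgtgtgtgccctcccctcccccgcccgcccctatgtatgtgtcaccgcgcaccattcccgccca
Hapln1: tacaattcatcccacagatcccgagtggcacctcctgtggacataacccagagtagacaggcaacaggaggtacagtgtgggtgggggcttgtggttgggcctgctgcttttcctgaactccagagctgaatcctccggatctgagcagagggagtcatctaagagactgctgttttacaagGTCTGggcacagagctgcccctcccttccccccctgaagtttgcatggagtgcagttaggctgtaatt
Matn1 holds 2 copies and Hapln1 1, on the opposite strand, whereas the Acan window holds 0. The core is common: 42.1% of 27025 promoter windows of the same length hold it, as do 40.9% of those of genes tested and 9 of the 13 cartilage promoters matched. The palindrome GTCTAGAC was found in 0 of those 13 and in 0.174% of all windows. The Sox cores ACAAAG or ACAATG, searched on both strands, were in none of the 3 windows shown, in 2 of the 13 cartilage promoters in 25.5% of all windows and in 17.3% of those of genes tested. A match describes the letters of a window and is no evidence of a site.

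Bone genes followed cartilage with smaller values in knockouts 3 and 4. Of 16 listed, 12 were matched on the array and 11 were tested; 9 fell and 2 rose in knockouts 1 and 2 (median -1.52; 39.2% of all genes fell and 27.1% rose), and 6 fell in knockouts 3 and 4 (median -0.42; 10.4% of all genes fell). The 6 included Sp7, the transcription factor of osteoblasts, at 8.80 and 8.87 in the controls, 6.97 and 7.05 and 7.86 and 7.87, and Alpl, the phosphatase that supplies phosphate for mineral, at 9.18 and 9.33, 7.35 and 7.34 and 8.43 and 8.15. Sp7 and Alpl fell by 0.96 and 0.96 in knockouts 3 and 4 (limma adjusted p = 0.0020 and 0.0072). Their single arrays overlapped between the groups, and with distal arrays only, as labelled, both lay above control (0.16 and 0.21, limma adjusted p = 0.910 and 0.894). With the ends of control 2 exchanged, neither lay above control with distal arrays only. The direction in distal arrays thus depends on which array of control 2 is distal. Smpd3, a sphingomyelinase needed for mineralisation, fell by 1.94 and 1.14, and Sparc, a collagen-binding protein of bone matrix, by 0.58 and 0.46. Panx3, a channel gene of cartilage and bone cells outside the list, stood at 9.10 and 8.40, 4.42 and 4.50 and 6.28 and 5.87. It thus lay under the filter level in knockouts 1, 2 and 4 and fell by 4.29 and 2.67. Without knockout 3 or 4, the count of 6 bone genes in that pair was 3, as it was with a sex covariate, and it was 2 with the spread shared with the maxilla.

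Tendon genes and the small leucine-rich proteoglycans showed most of their difference in knockouts 1 and 2. Of 12 tendon genes, 11 fell there (median -2.39; 39.2% of all genes fell). In knockouts 3 and 4 the list was near the 10.4% of all genes, with 2 lower, Scx and Tnc (median -0.19), and 0 with the spread shared with the maxilla. Scx stood at 8.16 and 8.09 in the controls, 6.39 and 6.38 in knockouts 1 and 2 and 6.95 and 6.73 in knockouts 3 and 4. All 4 knockouts were over 1 log2 unit lower, and the differences were -1.74 ± 0.08 and -1.29 ± 0.08 (limma adjusted p = 2.84e-05 and 0.0023). Tnc, tenascin C, a matrix glycoprotein of tendon and perichondrium, fell by 1.36 and 0.90 (adjusted p = 1.33e-04 and 0.0090).

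Of 11 small leucine-rich proteoglycans, which bind collagen and growth factors, 9 fell in knockouts 1 and 2 (median -2.12) and 3, Aspn, Prelp and Omd, in knockouts 3 and 4 (median -0.28). The shares of all genes that fell were 39.2% and 10.4%. Aspn, a TGF-beta-binding member, stood at 10.61 and 10.36 in the controls, 3.96 and 3.74 in knockouts 1 and 2 and 9.91 and 9.26 in knockouts 3 and 4. In knockouts 1 and 2 it lay far under the filter level and differed by -6.64 ± 0.22, against -0.90 ± 0.22 (limma adjusted p = 0.0446) in the other pair. The difference between the pairs was -5.74 ± 0.22 (adjusted p = 1.97e-05). Ogn, osteoglycin, stood at 11.78 and 11.70, 7.67 and 7.15 and 11.22 and 10.93, and in knockouts 3 and 4 it did not pass (-0.66 ± 0.18, adjusted p = 0.0590). Omd fell by 2.12 and 0.90 and Prelp by 1.06 and 0.70. Prelp lay under the filter level in all 4 knockouts and Omd in knockouts 1 and 2, so the sizes there are not well measured. Bgn, biglycan, differed by -0.92 ± 0.08 and -0.25 ± 0.08 (limma adjusted p = 1.62e-04 and 0.0841). Gdf10, a TGF-beta family ligand of connective tissue, had the same shape, at 10.80 and 10.44, 5.95 and 5.90 and 9.88 and 9.25, again under the filter level in knockouts 1 and 2. The 3 proteoglycans called in knockouts 3 and 4 became 0 without either control or without knockout 4, and 0 with a sex covariate or the spread shared with the maxilla.

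Fibrous matrix and elastic fibre genes fell in 25 of 29 in knockouts 1 and 2 (median -0.96), where 1 rose, and in 12 in knockouts 3 and 4 (median -0.31). Over all genes, 39.2% fell and 27.1% rose in knockouts 1 and 2, and 10.4% fell in knockouts 3 and 4. Col15a1, a collagen of basement membrane zones, was lower in knockouts 3 and 4 than in knockouts 1 and 2: 8.68 and 8.79 in the controls, 7.85 and 7.84 and 6.95 and 6.91 in the pairs. Its fall of 1.80 in knockouts 3 and 4 (limma adjusted p = 4.66e-04) exceeded that of 0.89 in knockouts 1 and 2 (difference of the pairs 0.91 ± 0.06, adjusted p = 6.14e-05). Mfap4, a microfibril protein also high in the mandibular arch, stood at 11.70 and 11.72, 11.07 and 11.16 and 11.19 and 11.15, with the knockouts in a band below both controls. Emilin1, an elastic fibre protein that restrains TGF-beta processing, fell by 0.78 and 0.45. The 12 became 5 without control 1, 6 without knockout 3, 2 without knockout 4, 7 with the spread shared with the maxilla and 16 after median-centring.

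Matrix receptors and adhesion genes fell in 12 of 19 in knockouts 1 and 2 (3 rose, median -0.44) and in 7 in knockouts 3 and 4 (median -0.20). Of all genes, 39.2% fell and 27.1% rose in knockouts 1 and 2, and 10.4% fell in knockouts 3 and 4. Itga5, the fibronectin-binding integrin subunit, stood at 9.40 and 9.36 in the controls, 8.91 and 8.98 in knockouts 1 and 2 and 7.58 and 7.35 in knockouts 3 and 4. It fell by 1.92 in knockouts 3 and 4 (limma adjusted p = 7.46e-04) and by 0.44 in knockouts 1 and 2 (adjusted p = 0.0049), and the pairs differed by 1.48 ± 0.09 (adjusted p = 4.15e-05). In knockouts 1 and 2 the mean of all its probe sets gave 0.38 instead, so its direction there depends on the probe set. Rhob, a small GTPase of the actin cytoskeleton, stood at 12.25 and 12.30, 11.27 and 11.28 and 11.53 and 11.46 and fell by 0.998 and 0.78. Ncam1, a cell adhesion molecule of condensing mesenchyme and nerve, fell by 0.81 and 0.54. The 7 became 3 without control 1 or knockout 4 and 4 without knockout 3.

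Among the TGF-beta ligands, receptors and Smads, 16 of 28 fell and 2 rose in knockouts 1 and 2 (median -0.29; 39.2% of all genes fell and 27.1% rose), and 6 fell in knockouts 3 and 4 (median -0.11; 10.4% of all genes fell). The 6 comprised the ligands Tgfb1 and Tgfb3, the latent binding proteins Ltbp1, Ltbp3 and Ltbp4, which hold ligands in the matrix, and the secreted Fstl1; Tgfb3 and Ltbp1 are named for completeness after their values were seen. Tgfb1 stood at 8.37 and 8.48 in the controls, 7.87 and 7.90 in knockouts 1 and 2 and 7.44 and 7.17 in knockouts 3 and 4. It fell by 0.54 and 1.12 (limma adjusted p = 0.0037 and 0.0050), further in knockouts 3 and 4. Ltbp3 stood at 10.84 and 10.63, 10.36 and 10.31 and 9.92 and 9.81, with the same order. Ltbp4 fell by 0.62 and 0.30. With proximal arrays only, as labelled, it was 0.029 above control in knockouts 3 and 4, but not with the ends of control 2 exchanged. The 6 became 2 without control 1 or knockout 4, 3 without control 2 or knockout 3 and 2 with the spread shared with the maxilla.

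Of 22 TGF-beta target genes, 16 fell and 3 rose in knockouts 1 and 2 (median -0.51), where 39.2% of all genes fell and 27.1% rose. In knockouts 3 and 4, 6 fell (median -0.08), beside 10.4% of all genes. Snai1, a repressor that TGF-beta induces when epithelium turns to mesenchyme, stood at 8.81 and 9.14 in the controls, 7.95 and 7.91 in knockouts 1 and 2 and 8.03 and 7.95 in knockouts 3 and 4. The 4 knockouts lay close together and below both controls, with differences of -1.05 ± 0.11 and -0.98 ± 0.11 (limma adjusted p = 3.78e-04 and 0.0076). Ccn2, a matricellular target also called CTGF, stood at 10.55 and 10.49, 9.51 and 9.27 and 10.05 and 10.002, and fell by 1.13 and 0.49. Ski, a feedback repressor of Smads, fell by 0.30 and 0.29, and Pmepa1, a feedback inhibitor, by 0.25 and 0.46. With distal arrays only Pmepa1 was 0.063 above control in knockouts 1 and 2, and 0.11 above with the ends of control 2 exchanged. The 6 target genes became 0 without knockout 4 and 1 without control 1 or knockout 3.

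Of all genes, 39.2% fell and 27.1% rose in knockouts 1 and 2, and 10.4% fell and 5.12% rose in knockouts 3 and 4. BMP pathway genes fell in 15 of 19 in knockouts 1 and 2 (2 rose, median -0.60) and in 6 in knockouts 3 and 4 (1 rose, median -0.08). The 6 became 3 without control 1, 1 without knockout 3, 2 without knockout 4 and 2 with the spread shared with the maxilla. Bmp6, a ligand of maturing cartilage, stood at 8.92 and 8.94 in the controls, 6.25 and 6.29 in knockouts 1 and 2 and 7.92 and 7.98 in knockouts 3 and 4, about 1 log2 unit down in the latter (limma adjusted p = 0.0014). Nog, the antagonist noggin, stood at 7.02 and 6.83, 5.42 and 5.21 and 6.17 and 6.20, under the filter level in knockouts 1 and 2, and fell by 0.74 in knockouts 3 and 4. FGF pathway genes fell in 9 of 15 (2 rose; median -0.34) and in 4 (median -0.23), the latter 2 without control 1 or knockout 3, 2 with a sex covariate and 1 without knockout 4. Fgf18, a ligand made around forming cartilage and bone, stood at 9.45 and 9.47, 7.54 and 7.49 and 8.30 and 8.18. It fell by 1.95 and 1.22 (adjusted p = 1.66e-05 and 0.0012), with all 8 knockout arrays below the controls. The receptor gene Fgfr1 fell by 0.34 and 0.57, and Spry4, a feedback inhibitor of receptor tyrosine kinases, by 0.94 and 0.82.

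WNT pathway genes fell in 19 of 26 in knockouts 1 and 2 (3 rose; median -0.83) and in 6 in knockouts 3 and 4 (2 rose; median -0.09), beside 39.2% and 10.4% of all genes. The 6 became 2 without control 1, 3 without control 2, 1 without knockout 3 or knockout 4 and 2 with the spread shared with the maxilla; the 2 became 0 without control 1, knockout 3 or knockout 4 and with the spread shared, and 1 without control 2. Tle1, a Groucho corepressor, stood at 10.86 and 10.94, 10.06 and 9.90 and 10.23 and 10.32 and fell by 0.92 and 0.63. The secreted antagonist Sfrp4 fell by 1.68 and 0.73. With distal arrays only, as labelled, it was 0.27 above control in knockouts 3 and 4, but not with the ends of control 2 exchanged. Of 15 Hedgehog pathway genes, 7 rose and 5 fell in knockouts 1 and 2 (median 0.05; 27.1% of all genes rose and 39.2% fell), and 1 each way was called in knockouts 3 and 4 (median -0.04). Of 12 Notch pathway genes, 4 rose and 4 fell, near those shares of all genes, and 3 fell in knockouts 3 and 4 (median -0.18), which became 0 without control 1, knockout 3 or knockout 4 and 1 without control 2.

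**Figure D4:**
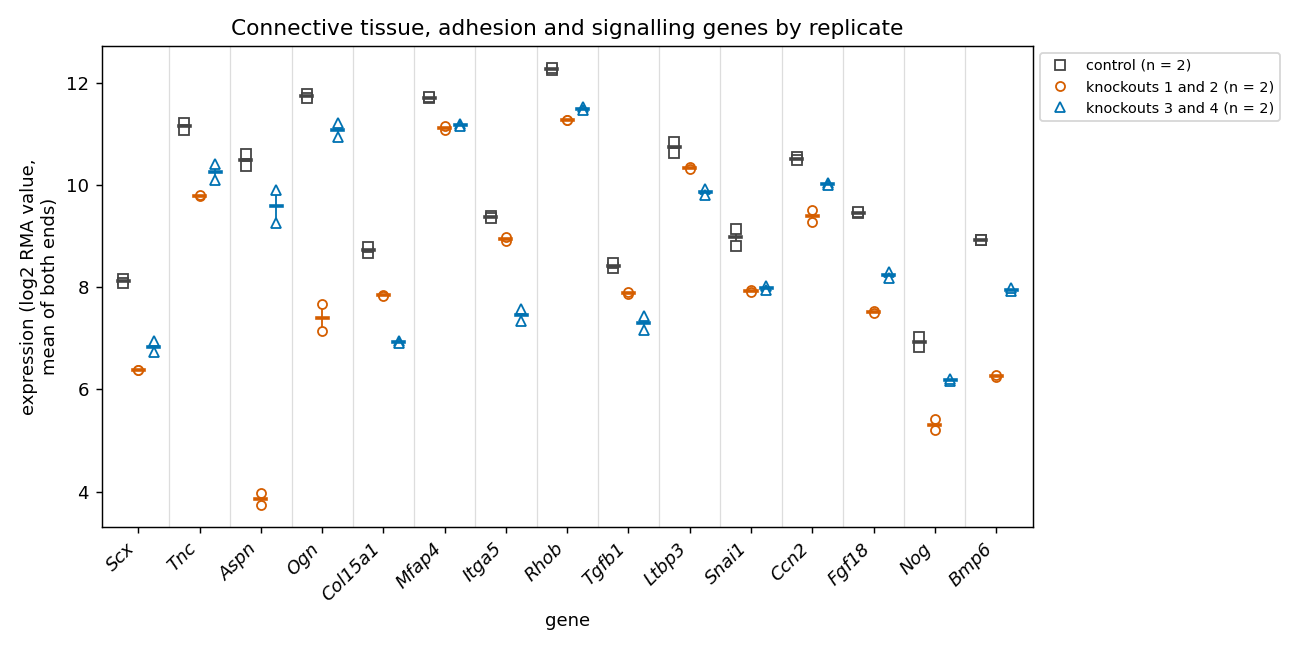
Log2 RMA levels of 15 connective tissue, adhesion and signalling genes are plotted, 1 open point per replicate (mean of both ends) with a bar at the mean of each set of 2. All knockout points lie below both controls; Itga5, Col15a1, Tgfb1 and Ltbp3 are lowest in knockouts 3 and 4, and Aspn, Ogn and Bmp6 in knockouts 1 and 2.

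Patterning genes of the jaw had calls near the shares of all genes, which are 39.2% lower and 27.1% higher in knockouts 1 and 2 and 10.4% and 5.12% in knockouts 3 and 4. Of 19 mandibular identity genes, 7 fell and 3 rose in knockouts 1 and 2 (median -0.20), and 2 fell and 1 rose in knockouts 3 and 4 (median -0.11), so the counts show nothing particular to them. Dlx6, a homeobox gene of the lower arch, stood at 10.45 and 10.71 in the controls, 9.76 and 9.61 in knockouts 1 and 2 and 10.06 and 10.23 in knockouts 3 and 4. It fell by 0.89 and, just inside the threshold, by 0.44 (limma adjusted p = 0.0497). Of 13 maxillary and frontonasal identity genes, 4 fell and 3 rose (median -0.24), and 1 fell and 1 rose in knockouts 3 and 4 (median 0.02). Of 22 oral mesenchyme and tooth germ genes, 8 fell and 5 rose (median -0.21), and in knockouts 3 and 4 1 fell and 2 rose (median 0.05). Hox genes, which the first arch lacks, fell in 5 of 8 in knockouts 1 and 2, above the 39.2% of all genes, and in 1 in knockouts 3 and 4 (medians -0.54 and 0.05). Their mean level was 5.34 to 7.08 on the control arrays. Without knockout 4, 0 genes of these 4 lists were called in knockouts 3 and 4.

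Over all genes, 39.2% fell and 27.1% rose in knockouts 1 and 2, and 10.4% fell and 5.12% rose in knockouts 3 and 4. Growth genes of the IGF, PDGF and imprinted list fell in 11 of 20 in knockouts 1 and 2 (4 rose, median -0.28) and in 4 in knockouts 3 and 4 (median -0.10). Igf1, the growth factor, stood at 12.56 and 12.61 in the controls, 11.60 and 11.65 and 12.20 and 12.17, and fell by 0.96 and 0.40. The imprinted Dlk1 fell by 0.83 and 0.42, and the imprinted Peg10 by 1.21 and 1.07, with the knockouts near or under the filter level. Proteases and inhibitors of matrix turnover fell in 13 of 19 (median -0.69) and in 6 (1 rose; median -0.21). Mmp14, the membrane collagenase, stood at 12.22 and 12.08, 11.42 and 11.32 and 11.67 and 11.56, and the aggrecanase-family Adamts15 and the inhibitor Timp3 fell by 0.65 and 0.55 in knockouts 3 and 4. The 4 growth genes became 2 without control 1, 1 without control 2 and 0 without knockout 3 or knockout 4, and the 6 proteases and inhibitors became 1 without control 1, 2 without control 2 or knockout 3 and 0 without knockout 4.

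Developmental timing genes, the RNA-binding and chromatin regulators that are high in early embryos and wane with age, ran the other way. Of 10, 9 rose in knockouts 1 and 2 (median 1.04) beside 27.1% of all genes, and 3 in knockouts 3 and 4 (median 0.26) beside 5.12%. Lin28a, which blocks let-7 processing, stood at 4.28 and 4.62 in the controls, 7.77 and 7.76 in knockouts 1 and 2 and 4.80 and 4.87 in knockouts 3 and 4. It was above the filter level in knockouts 1 and 2 only and was tested through them alone, so no size is given. Trim71, a let-7 target, differed by 3.20 ± 0.09 and 0.27 ± 0.09 (limma adjusted p = 1.66e-05 and 0.0942). Sall4, a zinc finger gene of early embryos, rose by 3.03 ± 0.16 and 0.69 ± 0.16, the latter -0.13 with proximal arrays only, as labelled. With the ends of control 2 exchanged, it stayed above control in proximal arrays. The members called in knockouts 3 and 4 were Igdcc3, Sall4 and Mycn, the last named after its value was seen; 1 was called without control 1, knockout 3 or knockout 4.

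The cell state lists stand beside 10.4% of all genes lower in knockouts 3 and 4. In knockouts 1 and 2 the cell cycle genes had calls near the shares of all genes (27.1% higher and 39.2% lower). The hypoxia genes were near the share called lower there and under the share called higher. Of 24 cell cycle genes, 6 rose and 10 fell there (median -0.02), and 2 rose in knockouts 3 and 4 (median 0.11; 5.12% of all genes rose), which became 0 without either control, knockout 3 or knockout 4 and 4 without knockout 1 or knockout 2. Tyms, thymidylate synthase, differed by 1.81 ± 0.14 and 0.31 ± 0.14 (limma adjusted p = 9.51e-05 and 0.173). Of 16 p53 target and apoptosis genes, 5 rose and 5 fell, and 2 rose and 1 fell in knockouts 3 and 4. Bcl2l11, the pro-apoptotic BIM, stood at 10.06 and 10.15, 11.80 and 11.71 and 10.78 and 10.74 and rose in both pairs. Of 15 hypoxia and glycolysis genes, 5 fell and 1 rose (3 fell without control 2), and 3 fell in knockouts 3 and 4, which became 1 without control 2 or knockout 3 and 0 without knockout 4. Immediate early and stress genes were mostly lower in knockouts 1 and 2: of 17, 14 fell and 2 rose (median -0.88), and in knockouts 3 and 4 1 fell and 2 rose (median -0.03). The 1 was Klf2, a shear-responsive transcription factor, at 8.86 and 8.86, 7.25 and 7.28 and 8.23 and 8.05.

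Muscle precursors of the arch come from mesoderm, outside the Cre lineage. As background, limma gave 4714 of 13837 genes an unadjusted p under 0.05 in knockouts 3 and 4. It called 10.4% lower and 5.12% higher there, and 27.1% higher in knockouts 1 and 2. Of 13 myogenic regulators, 6 fell and 2 rose in knockouts 1 and 2 (median -0.45) and limma called 0 in knockouts 3 and 4, where 2 had an unadjusted p under 0.05 (median 0.10). Of 21 sarcomere and neuromuscular genes, 10 fell and 2 rose (median -0.53) and again 0 were called, with 1 at an unadjusted p under 0.05 (median 0.15). Over all genes 39.2% fell in knockouts 1 and 2, and the 10 became 5 with a sex covariate and 6 without knockout 2. Sharing the spread with the maxilla left 0 fallen sarcomere genes and 1 fallen myogenic regulator. Without control 1, 2 regulators and 6 sarcomere genes rose in knockouts 3 and 4. The mean level of the sarcomere list spanned 8.62 to 10.46 on the 4 control arrays, wider than the knockouts' 8.87 to 10.12.

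Markers of other cell types moved with the comparisons as follows, and their part in the results above was not tested. Epithelium markers lay above control in all 22 members in knockouts 3 and 4 (43.2% of all genes did), where 12 rose (median 0.50), against 8 risen (5 without knockout 2) and 2 fallen in knockouts 1 and 2 (median 0.19). Their mean level spanned 8.82 to 9.62 on control arrays, 9.13 to 9.68 in knockouts 1 and 2 and 9.56 to 9.84 in knockouts 3 and 4, and no member lay below the filter on all arrays. Dsg2 and Dsp, of desmosomes, rose by 0.82 and 0.61 in knockouts 3 and 4 and 0.79 and 0.80 in knockouts 1 and 2, and the epithelial splicing regulator Esrp1 by 0.67 and 0.61. The 12 epithelium markers, beside 5.12% of all genes higher, became 7 without control 1, 1 without knockout 4 and 0 with the spread shared with the maxilla. Krtdap, a keratinocyte gene, stood at 5.77 and 5.47, 4.76 and 4.68 and 7.36 and 6.94, above the filter level in knockouts 3 and 4 only. H2-D1, a histocompatibility antigen gene, stood at 9.05 and 9.07, 7.71 and 7.73 and 10.34 and 10.32, opposite ways in the pairs (difference -2.61 ± 0.05, limma adjusted p = 1.82e-05).

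Erythroid markers rose in 9 of 10 in knockouts 1 and 2 (median 1.07) and fell in 3, all globins, in knockouts 3 and 4 (median -0.28; 1 without either control, knockout 3 or knockout 4, and 5 without knockout 1 or knockout 2). Over all genes, 27.1% rose in knockouts 1 and 2 and 10.4% fell in knockouts 3 and 4. Globins did not all fall in knockouts 3 and 4: Hba-a2, outside the list, was among the 8 called genes furthest above control there. Slc4a1, the red cell anion exchanger, stood at 8.85 and 8.97 in the controls, 11.92 and 11.39 in knockouts 1 and 2 and 8.42 and 8.50 in knockouts 3 and 4. It rose by 2.74 ± 0.17 in knockouts 1 and 2 and did not pass in knockouts 3 and 4 (limma adjusted p = 0.124); the pairs differed by 3.19 ± 0.17 (adjusted p = 3.23e-05). Of 16 endothelium markers, 11 fell and 2 rose in knockouts 1 and 2 (median -0.54; 39.2% of all genes fell), and 4 fell in knockouts 3 and 4 (median -0.20; 10.4% of all genes fell). The 4 became 2 without control 1, 1 without control 2 or knockout 3, 0 without knockout 4 and 1 with a sex covariate or the spread shared with the maxilla. Tie1, an endothelial receptor, fell by 0.39 and 0.56, and the endothelial and cartilage factor Erg by 2.10 and 0.58. Macrophage markers fell in 9 of 17 and rose in 2, and 1 rose and 1 fell in knockouts 3 and 4. These were Cd68, a lysosomal protein, at 6.50 and 6.48, 7.06 and 7.24 and 7.01 and 7.21, and Pf4, a platelet and macrophage chemokine, at 9.27 and 9.47, 8.73 and 8.89 and 8.34 and 8.23.

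Markers of glia and migrating neural crest, which are of the Cre lineage, fell in 10 of 13 (1 rose; median -1.08) and in 2 (1 rose; median -0.10). The 2 were Sox10, the transcription factor of Schwann cells, at 9.16 and 9.04, 8.18 and 7.86 and 8.30 and 8.33, and Ngfr, the low-affinity neurotrophin receptor, at 9.97 and 9.93, 9.09 and 8.98 and 9.35 and 9.26. Both lay below both controls in all 4 knockouts, and the 2 called became 1 without control 1 or knockout 3 and 0 without knockout 4. Neuron markers fell in 8 of 17 and in 1 (medians -1.05 and -0.31), near the 39.2% and 10.4% of all genes, with a mean level of 7.17 to 8.91 on control arrays against 6.66 to 6.93 and 7.12 to 7.82 in the pairs. The 8 became 4 without control 1, 14 without control 2 and 5 without knockout 1 or knockout 2, and the 1 became 6 without control 2 and 0 without knockout 4. Brain and eye markers had 1 called each way in knockouts 1 and 2 and 1 risen in knockouts 3 and 4, and 5 of 16 lay below the filter on all mandible arrays. Rises were called at 27.1% of all genes in knockouts 1 and 2 and at 5.12% in knockouts 3 and 4.

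**Figure D5:**
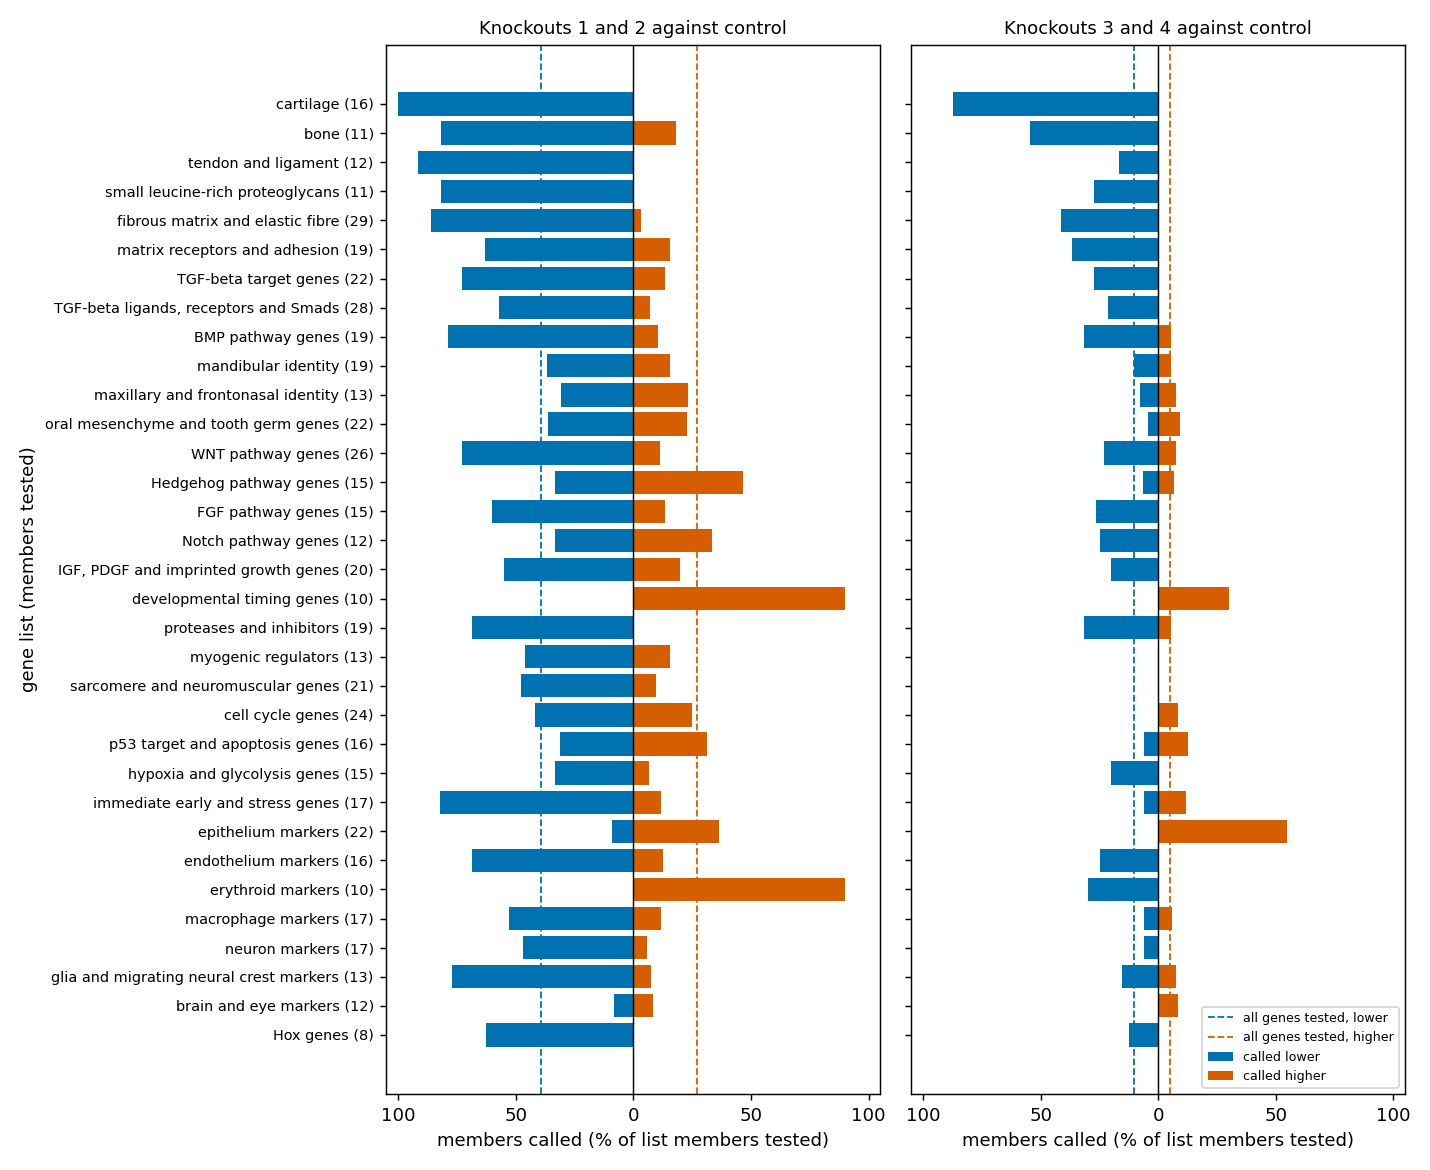
Bars give the share of each list's tested members (number in brackets) called lower (leftward) or higher (rightward) by limma at an adjusted p under 0.05, for knockouts 1 and 2 and for knockouts 3 and 4 against the same 2 controls; dashed lines mark the shares over all 13837 genes. In knockouts 3 and 4 cartilage has 14 of 16 members lower and epithelium markers 12 of 22 higher. The lists were chosen with earlier results of these data known.

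Whether the knockout acted otherwise in the mandible than in the maxilla was tested as an interaction, with the maxilla's 12 arrays averaged in the same way. No gene of the 13837 passed (0, or 0.0%; limma, smallest adjusted p = 0.0736), and 761 (5.50%) had an unadjusted p under 0.05. The count was 70 without control 2. The 5 smallest p-values, none passing, belonged to Ccnb3, a germline cyclin, Igf1, the signalling adaptor Eps8, the vessel ligand Angpt1 and the adhesion gene Kirrel3. Igf1 differed from control by -0.68 ± 0.22 in the mandible and 0.25 ± 0.19 in the maxilla, and the difference between the jaws was -0.93 ± 0.10 (log2, SE, limma adjusted p = 0.0736). The SEs of single jaws count the spread between the knockout pairs as error, and that of the difference does not. The fit of the difference took both jaws of a replicate as independent. With the jaws of each replicate subtracted first, the smallest limma adjusted p over all genes was 0.249. Ccnb3 lay at 4.72 and 4.77 in the mandible controls, 6.30 and 6.56 in knockouts 1 and 2 and 5.98 and 5.70 in knockouts 3 and 4, above the filter level in knockouts 1 and 2 only, so no size of its difference is given. Eps8, Angpt1 and Kirrel3 gave differences between the jaws of -0.96, -1.13 and 1.01. For Arg1, with mandible controls under the filter level, the test of the jaws did not pass (adjusted p = 0.664). Mid1 was above control in the maxilla too, by 1.61 and 1.68 (difference between the jaws 0.73 ± 0.47, adjusted p = 0.926).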

How the data were processed

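Total RNA from mouse mandibles and maxillae was hybridised to Affymetrix arrays. Per the submitters' processing notes, RMA was used by the authors; the deposited table holds its log2 values, 1 per probe set. The version of RMA, and whether the arrays were normalized in 1 run, are not given in the sources used here. Array medians of the mandible were 6.77 to 6.86. Of 45101 probe sets, 64 controls were left out of the tests, 34945 carry 1 gene symbol, 932 several and 9160 none (platform annotation; 34741 matched RefSeq, GRCm38.p6, 0 symbols updated). Each of 18193 genes was represented by its brightest probe set over the 24 arrays, and 13837 genes above the 40th percentile of values (6.07) on at least 2 arrays were tested. The 4874 unnamed probe sets past that filter are given as counts.

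Both ends of each replicate were averaged. Comparisons used limma 3.58.1 under R 4.3.3 (eBayes after lmFit, no trend; 2-sided p-values adjusted over all genes tested by Benjamini-Hochberg; threshold 0.05). Knockouts over both pairs entered a fit of 2 groups; the pairs were contrasts of a fit of 3 groups with 3 residual degrees of freedom, and the interaction of a fit of 6 groups of 12 means. The fits were tested on simulated data with known changes. That simulation held no difference between the knockout pairs, so it does not speak to the spread between them here. The rule for named genes took the 12 genes furthest each way whose arrays did not overlap, the 8 furthest each way in each pair, the 5 smallest p-values of the interaction and up to 4 members of each list by p. The members, the 35 gene lists and the rule were chosen with earlier results of these data known. Promoters came from RefSeq; motifs were counted on both strands. Alternatives covered centring, filter, probe choice, trend, covariates for 3′ excess and sex, arrays as units, ends taken alone, spread shared with the maxilla, a replicate block and leaving out replicates. Those with the ends of control 2 exchanged were added after the data were seen. Same-numbered controls and knockouts did not deviate together (r = 0.074 across genes), so numbers were not taken as pairs.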

Additional observations from a re-analysis of the deposited data

Results flagged for a closer look

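Probe sets that carry no gene symbol or several stand outside the gene comparisons and are given as counts. Of 4874 that passed the filter, limma called 3576 in knockouts 1 and 2 against control, 1088 in knockouts 3 and 4 against control and 3495 between the knockout pairs. Of the 3576, 2867 were higher and 709 lower, and of the 1088, 923 were higher and 165 lower. Genes with 1 symbol went the other way, with more called lower than higher in both pairs. The cause was not tested. The interaction of genotype with jaw called 1. Among the 88 genes checked, those whose differences the text prints, the lowest or highest of the 4 knockout means lay beyond Dixon's 95% criterion in 0. Where the pairs lie apart, as at 69.2% of genes tested, the range is mostly the gap between pairs. The criterion can then hardly flag a single replicate, so the 0 does not show that none is outlying.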

How the results depend on the processing

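For knockout against control over all 4 knockouts, the count of 0 genes became 1 with no filter, 176 with arrays as units and end as covariate, 2 when a random block was added to that, 2052 with the 3′ excess as covariate, 4975 with each pair a group of its own and the spread shared with the maxilla and 333 with arrays as units and the ends of control 2 exchanged; it stayed at 0 when any replicate was left out (0 to 0). In knockouts 1 and 2 the count of 9179 became 0 with the 3′ excess as covariate and 5733 with proximal arrays only, and ran from 7898 to 8749 with a replicate left out. In knockouts 3 and 4 the count of 2153 became 1 with the 3′ excess as covariate, 3393 with arrays in a random block, 10 with proximal and 193 with distal arrays only, 436 and 720 with the ends of control 2 exchanged, 614 with the spread shared and 809 with a sex covariate, and ran from 223 to 2334 with a replicate left out. Between the pairs the count of 9577 became 0 with the 3′ excess as covariate and 6136 with proximal arrays only, and ran from 8092 to 9381 with a replicate left out. The interaction with jaw called 1 gene with a trend and 0 to 70 with a replicate left out, the 70 without control 2. The causes were not tested.

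With the replicate block, 8763 genes were called for knockout against control and again for knockouts 1 and 2, and 0 for the interaction with jaw; the first drops knockouts 3 and 4, which share no number with a control. No paired analysis was possible for knockouts 3 and 4 because the controls carry numbers 1 and 2 only.

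Directions turned as follows. With the 3′ excess as covariate, the difference in knockouts 1 and 2 was -4.45 for Mid1, 0.22 for Fam107a, 2.05 for Col2a1, 1.57 for Matn1, 1.00 for Col9a2, 1.85 for Ltbp4 and -0.88 for Slc4a1. In knockouts 3 and 4 it was 0.037 for Aspn, 0.089 for Ogn and -0.024 for Tyms, and between the pairs 3.96 for Matn1, -0.91 for Itga5 and -0.79 for Slc4a1. None of these turns with the covariate passed (limma adjusted p from 0.814 to 0.988). The mean of all probe sets gave Itga5 0.38 in knockouts 1 and 2. With distal arrays only, Pmepa1 was 0.063 in knockouts 1 and 2 (0.11 with the ends of control 2 exchanged), and Sp7, Alpl and Sfrp4 were 0.16, 0.21 and 0.27 in knockouts 3 and 4. With proximal arrays only, Ltbp4 was 0.029 and Sall4 -0.13 there. With the ends of control 2 exchanged, only Pmepa1 turned, in knockouts 1 and 2 with distal arrays. Of 207 differences of named genes, 205 kept their side of the threshold after median-centring and 202 with a trend. With the 3′ excess as covariate only 14 did, while 158 no longer passed, 22 newly passed and 13 turned. With proximal arrays only 88 no longer passed. Sharing the spread with the maxilla left 49 no longer passing and 21 newly passing. With 2 controls, the number of arrays limits every value, and knockout pair and array set cannot be told apart.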
